A study of Mus musculus with 16 samples.

Results

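The myocyte enhancer factor 2 (MEF2) family was examined in single-nucleus RNA-seq of the mouse hippocampus after repeated activation of STING, with its 4 members taken by gene symbol (Mef2a, Mef2b, Mef2c and Mef2d) from the 32285 genes of the deposited tables. The 16 libraries came from 16 male mice, 1 mouse a library, in 4 groups of 4. C57BL/6 mice (WT), aged 2 months and 23 days, received vehicle or DMXAA, a small-molecule agonist of mouse STING, and Ifnar1-/- mice (KO), aged 3 months and 3 days, received the same treatments. KO mice lack IFNAR1, a chain of the receptor for type I interferons. Genotype coincided with age and with the set of libraries, so those cannot be told apart in a comparison of WT with KO, whereas vehicle and DMXAA were compared within a genotype. Because 1 mouse gave 1 library, the p-values below measure the spread between mice.

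MEF2 proteins are transcription factors that bind A/T-rich elements through an N-terminal MADS box and the adjoining MEF2 domain. They are held inactive by class IIa histone deacetylases and released by calcium signalling through calcineurin and CaM kinases. In neurons the family links synaptic activity to genes that shape the number of excitatory synapses, and in microglia Mef2a and Mef2c are known as regulators of the resident macrophage programme. STING, an endoplasmic reticulum protein activated downstream of the DNA sensor cGAS, drives type I interferon, which acts through IFNAR1 on most brain cells.

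The members are close relatives at the start of their coding sequences, where the MADS box and MEF2 domain are encoded, and a read from this stretch can be assigned to 1 paralogue only through the bases at which they differ. The first 258 coding bases are shown 5′ to 3′ from the GENCODE M21 transcripts of GRCm38, with capitals in Mef2a, Mef2b and Mef2d where a base differs from Mef2c.
Mef2a: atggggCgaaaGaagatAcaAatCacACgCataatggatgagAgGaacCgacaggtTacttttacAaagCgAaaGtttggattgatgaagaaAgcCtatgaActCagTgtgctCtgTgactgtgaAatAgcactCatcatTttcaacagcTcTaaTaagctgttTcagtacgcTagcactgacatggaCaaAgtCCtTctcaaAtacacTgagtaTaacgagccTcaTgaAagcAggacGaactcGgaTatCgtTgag
Mef2b: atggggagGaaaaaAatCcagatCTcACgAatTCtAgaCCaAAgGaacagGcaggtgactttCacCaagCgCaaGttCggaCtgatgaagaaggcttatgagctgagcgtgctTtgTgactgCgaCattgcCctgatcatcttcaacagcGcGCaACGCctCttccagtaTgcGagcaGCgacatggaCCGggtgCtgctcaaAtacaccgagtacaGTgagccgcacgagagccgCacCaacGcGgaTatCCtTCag
Mef2c: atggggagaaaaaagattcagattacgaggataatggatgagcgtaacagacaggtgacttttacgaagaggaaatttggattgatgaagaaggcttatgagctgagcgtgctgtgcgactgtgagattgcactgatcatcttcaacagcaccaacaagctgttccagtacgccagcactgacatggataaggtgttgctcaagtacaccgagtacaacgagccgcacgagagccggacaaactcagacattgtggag
Mef2d: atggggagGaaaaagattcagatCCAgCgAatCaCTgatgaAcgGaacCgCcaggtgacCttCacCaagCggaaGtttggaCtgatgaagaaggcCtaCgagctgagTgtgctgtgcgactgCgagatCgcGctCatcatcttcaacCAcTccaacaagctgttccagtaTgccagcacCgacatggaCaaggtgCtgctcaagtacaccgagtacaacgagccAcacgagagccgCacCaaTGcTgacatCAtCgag
Over these bases Mef2d was 83.7% identical to Mef2c, with 42 differing bases, Mef2a 81.0% with 49 and Mef2b 77.9% with 57. Among the other pairs, Mef2b and Mef2d shared 80.6%, Mef2a and Mef2d 77.5%, and Mef2a and Mef2b 74.8%.

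In GRCm38 (mm10), the build of the deposited tables, Mef2c (ENSMUSG00000005583) lies at chr13:83504034-83667080 on the plus strand and spans 163 kb. Mef2a (ENSMUSG00000030557) lies at chr7:67231163-67372858 on the minus strand, spans 142 kb and overlaps Lysmd4 on the opposite strand. Mef2d (ENSMUSG00000001419) lies at chr3:88142372-88172086 on the plus strand, spans 29.7 kb and has an antisense transcript, 1700113A16Rik. Mef2b (ENSMUSG00000079033) lies at chr8:70139711-70167488 on the plus strand, spans 27.8 kb and overlaps Borcs8 (chr8:70139499-70147319) on the same strand, so reads from that overlap cannot be assigned to 1 gene with certainty. The nuclear libraries count unspliced RNA, and a longer gene offers more sites from which a read can come, so levels are compared between genes only per kb of gene span. In the 6 RefSeq promoter windows of the 4 genes (GRCm38.p6, 250 bases before to 50 after a start, 3 of them for Mef2c), a script searched both strands for 3 motifs. The interferon-stimulated response element (GAAA, any 2 bases, GAAA) was in 0 of the 6 and in 3.44% of all 32851 windows, the MEF2 element (CTA, any 4 bases, TAG) was in 1, of Mef2a, and in 3.69% of all, and the STAT element (TTC, any 3 bases, GAA) was in 1, of Mef2c, and in 8.30% of all.

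After filtering, 112498 nuclei of 155084 barcodes were used, 5299 to 9377 a library, with 33564383 to 52573300 unique molecular identifiers (UMIs) a library. No 2 libraries shared more than 24 barcodes. Ifnar1 was lower in KO than in WT libraries (12.4 to 13.3 against 15.3 to 17.0 normalised CPM, UMIs expressed per fixed library total and scaled by the trimmed mean of M-values, over all nuclei) and was still detected in KO, with 374 to 530 UMIs a library. It spans 22.2 kb, and genes shorter than 30 kb were lower in KO vehicle than in WT vehicle by a median log2 difference of −0.38 in excitatory neurons and −0.41 in microglia. The part of that shift in the Ifnar1 difference was not tested. The summed level of 63 interferon-stimulated genes in microglia was 1451 to 1611 CPM in WT vehicle libraries, 4057 to 13509 in WT DMXAA and 784 to 1022 in both KO groups. The libraries labelled hippocampus also held nuclei with cortical markers, 14.3% to 46.9% of excitatory-neuron nuclei. A further 10540 nuclei fitted no marker list and stayed unnamed. One library stood apart. WT DMXAA 3 had 2.38% of its UMIs on Malat1, a nuclear non-coding RNA, against 7.49% to 9.13% in the other WT DMXAA libraries, and 67.4% of its UMIs on genes longer than 100 kb against 51.3% to 52.1%. In both measures it lay near the KO libraries (1.27% to 2.79% and 64.7% to 69.4%). Its Ifnar1 level, at 16 normalised CPM, lay within the WT range on that scale. In plain CPM the library had 13.5 of Ifnar1, between the KO libraries (10.7 to 12.6) and the other WT libraries (16.8 to 19.2). Its summed interferon-stimulated genes were above every WT vehicle library in microglia and excitatory neurons but the lowest of its group there, at 4057 CPM in microglia against 6984 to 13509, and at 307 in excitatory neurons against 357 to 720.3. In interneurons its 268 CPM lay within the WT vehicle range of 227 to 275, as did the 264 CPM of WT DMXAA 4. Results that rest on WT DMXAA 3 are given with and without it.

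The family was unevenly spread over the classes of nuclei by the medians of the libraries. In the kept nuclei Mef2c gave 250183 UMIs, Mef2a 122217, Mef2d 62204 and Mef2b 3601. A UMI of Mef2c was found in 40.2% to 56.0% of nuclei a library, of Mef2a in 44.7% to 55.4%, of Mef2d in 27.7% to 43.6% and of Mef2b in 2.02% to 4.17%. Levels below are plain CPM, the share of a class's UMIs, as the median, lowest and highest of the 8 vehicle libraries of both genotypes, over 15 classes. The part of free RNA in the low levels was not tested.

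Mef2c, the member known for its role in cortical development and in synapse number, had its highest levels in microglia, at a median of 1882 CPM (1365 to 2194), and in border macrophages, at 1594 CPM (896 to 2439). Among neurons it was highest in the Lhx6-type interneurons, at 839 CPM (748 to 1013), followed by cortical excitatory neurons at 629 CPM (492 to 1095), Adarb2-type interneurons at 457 CPM (336 to 559) and dentate granule neurons at 395 CPM (387 to 422). Dentate granule nuclei had a narrow range for their level. The pyramidal neurons of CA1 and CA3 and the subiculum nuclei were at the bottom of the order, with CA1 at 53.3 CPM (32.2 to 75.8), subiculum at 53.5 CPM (28.9 to 103) and CA3 at 32.5 CPM (26.1 to 59.9). The ranges of dentate granule and CA1 nuclei did not come near each other, and those of CA1 and CA3 overlapped.

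Mef2a followed another order. It was highest in microglia, at 2114 CPM (1567 to 2679), then in border macrophages at 1234 CPM (631 to 1533), and all other classes had medians of 367 CPM or less. Among neurons its levels lay close together in dentate granule nuclei at 153 CPM (122 to 183), cortical at 142 CPM (125 to 177), CA3 at 141 CPM (112 to 189) and CA1 at 127 CPM (100.5 to 162). Subiculum and Cajal-Retzius neurons lay apart from these. Per kb of gene span subiculum had 0.538 CPM and Cajal-Retzius neurons 2.33, beside 0.895 in CA1 and 1.08 in dentate granule nuclei. The hippocampal regions that differed most in Mef2c had overlapping ranges of Mef2a. Mef2d, the most evenly spread member, ran from 178 CPM (117 to 251) in microglia and 119 CPM (95.3 to 158) in dentate granule nuclei to 57.6 CPM (49.9 to 84.4) in oligodendrocyte precursors. Mef2b, a member best known from germinal-centre B cells, was near the limit of detection, with medians of 12.3 CPM in astrocytes, 7.41 CPM in dentate granule nuclei and 1.47 CPM in CA3, and a median of 0 in pericytes. The border-macrophage median for Mef2b of 17.3 CPM stood on few nuclei and ran from 0 to 24.8.

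**Figure D1:**
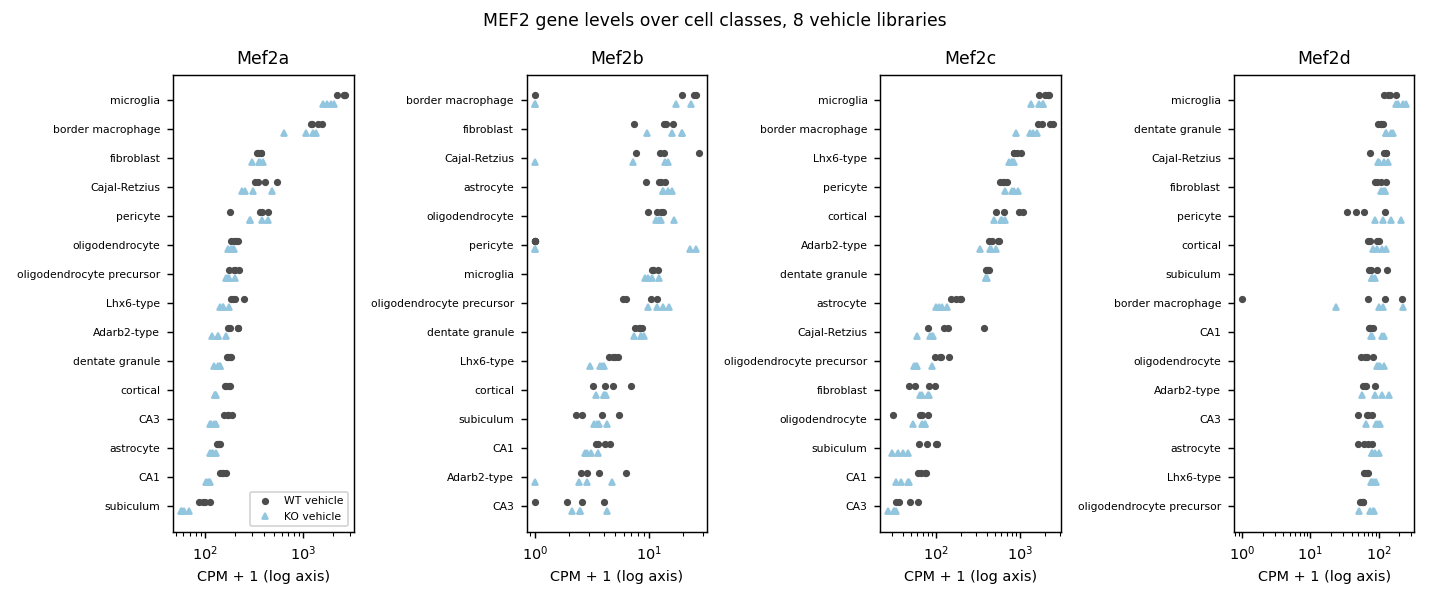
Level of each MEF2 gene in 15 classes of nuclei, as CPM + 1 on a log axis, with 1 point a vehicle library (dark circles WT, light triangles KO, 8 libraries in all). Mef2c spans from 32.5 CPM in CA3 to 1882 CPM in microglia by its medians, whereas Mef2d stays between 57.6 and 178 CPM.

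Classes that follow each other in these orders were compared within libraries with a two-sided exact sign-flip permutation test over 8 vehicle libraries. The same libraries set the order, so the test describes how steady each step was and is no independent evidence of it. In 8 of the 56 neighbouring pairs the step had the same direction in all 8 libraries, which gives p = 0.0078, the smallest this exact test allows, and an adjusted p of 0.0547, so none passed. The step of Mef2a from microglia to border macrophages was in the same direction in 8 of 8 libraries with a log2 difference of 0.85, at that same p. In the DMXAA libraries, where 12 classes could be ordered, 9 of 44 pairs had the smallest p and passed, and the 2 counts are not a comparison of the treatments. Mef2a, Mef2c and Mef2d had the same top class as in vehicle.

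Per kb of gene span, the balance of the paralogues turned over between regions. In dentate granule nuclei Mef2d was at 4.01 CPM per kb, Mef2c at 2.43, Mef2a at 1.08 and Mef2b at 0.267. In CA1 Mef2d was at 2.64 CPM per kb, Mef2a at 0.895 and Mef2c at 0.327, and in CA3 the values were 2.49, 0.993 and 0.20. Mef2c was thus above Mef2a per kb in dentate granule nuclei and below it in both pyramidal regions. Cortical nuclei had 3.86 CPM per kb of Mef2c against 1.0 of Mef2a, and Lhx6-type interneurons 5.15 against 1.26. In microglia both were high, with 14.9 CPM per kb of Mef2a and 11.5 of Mef2c beside 5.99 of Mef2d. These values rank genes by reads per kb of the whole gene and say nothing of protein.

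The genes whose pattern over the 15 classes was most like each member were ranked by the Pearson correlation of mean log2 CPM in vehicle libraries, among 15074 genes. For Mef2a they were Lysmd4 (r = 0.988), which lies across Mef2a on the other strand, Dhx9 (0.977), Rab35 (0.967), Tpp2 (0.966) and Cebpg (0.966). For Mef2c the values were lower, with Twistnb (0.835), Rgs2 (0.826), St8sia4 (0.824), Rgs10 (0.815) and Utp15 (0.810). Mef2d was nearest to Ccni (0.843), Qrich1 (0.837), Crcp (0.833), Stx2 (0.829) and Capn3 (0.828), and Mef2b to Rfc1 (0.969), Mrpl27 (0.964), Rpf1 (0.961), Fam204a (0.952) and Suz12 (0.949). Log2 CPM had 0.5 added to each count, which sets the level of a gene without counts by the UMIs of the class. Mef2b had few counts, with a median of 0 in pericytes, and the part of that addition in its correlations was not tested. The classes of a library share its mouse, depth and free RNA, and are not independent points.

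The main question was whether DMXAA changed the family, and in which cells. Counts were summed per library and class and compared across mice with edgeR's quasi-likelihood test, with adjustment over all genes of a class, and calls needed an adjusted p below 0.05 with a fitted log2 change beyond 0.1 in either direction. Mef2a was testable in 25 classes, Mef2c and Mef2d in 24 each and Mef2b, whose counts were too low elsewhere, in 9, so 82 tests were made in each contrast. The classes are nested in part, since all nuclei, excitatory neurons and cortical nuclei hold other classes. No member was called for DMXAA in WT, for DMXAA in KO or for the interaction of DMXAA with genotype, 0 of 246 tests, of which 10 had an unadjusted p under 0.05. Over all genes and classes, 0.19% of 263191 tests were called in WT, 0.00038% in KO and 0.0201% for the interaction, so a count of 0 among 82 does not set the members apart. DESeq2 called 1 of the 26 tests in the 7 main classes, Mef2c in WT microglia.

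**Figure D2:**
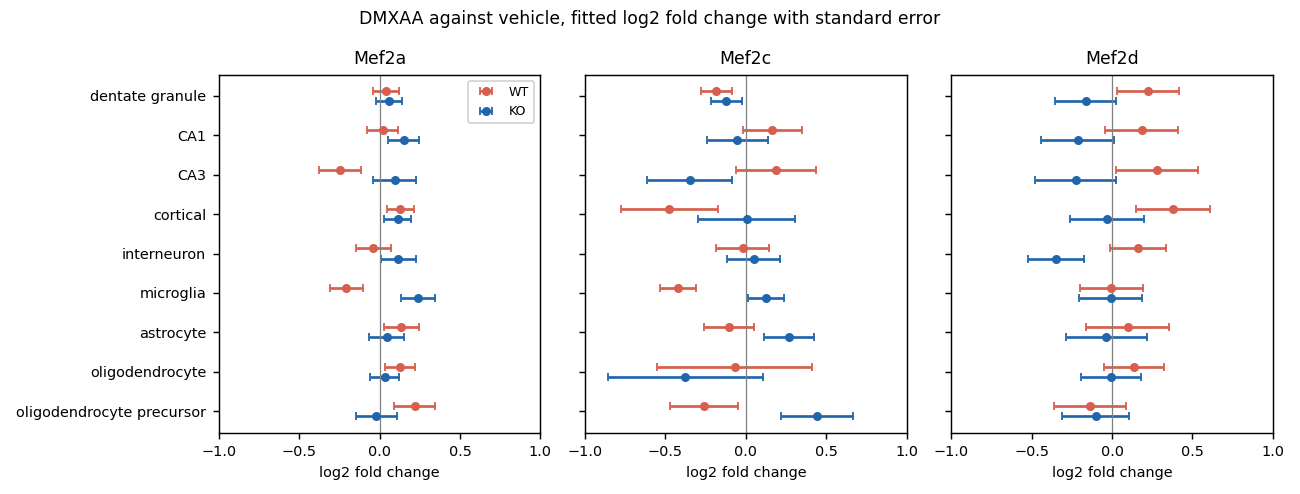
Fitted log2 fold change of DMXAA against vehicle for Mef2a, Mef2c and Mef2d in 9 classes, in WT (red) and KO (blue), with bars of 1 SE. No value passed the adjusted threshold, and among dentate granule, CA1, CA3, cortical, interneuron and microglia the value farthest from 0 was Mef2c in WT cortical nuclei, at −0.48.

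The smallest p of the WT contrast was that of Mef2c in microglia. The 4 WT vehicle libraries, in the order of their replicate numbers, had 2112, 1947, 2138 and 1660 normalised CPM, and the 4 WT DMXAA libraries 1655, 1272, 1469 and 1468. The groups did not overlap, by the narrow gap between 1660 and 1655. In the same class and direction 2.81% of 9070 genes had groups that did not overlap. The KO vehicle libraries had 1834, 1534, 2016 and 2024 and the KO DMXAA libraries 2005, 1898, 1974 and 2197, and these overlapped.

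The fitted log2 fold change was −0.42 ± 0.11 (SE) in WT (1964 ± 220 to 1466 ± 156 normalised CPM, SD, n = 4), with a p of 0.00167 and an adjusted p of 0.0786 by edgeR. In KO it was 0.12 ± 0.11. The interaction was −0.55 ± 0.16, with a p of 0.00332 and an adjusted p of 0.257, which did not pass the threshold. The WT value sat close to the threshold. It was called by DESeq2 (adjusted p = 0.0291), without WT vehicle 4 (−0.50, adjusted p = 0.0369) and without WT DMXAA 3 (−0.42, adjusted p = 0.0278), and it moved to −0.16 (adjusted p = 0.544) when UMIs of all nuclei set the library size. Over all alternatives tried its adjusted p ran from 0.0278 to 0.544. The summed level of 8 microglial marker genes moved in the same direction, at 9854 to 10644 CPM in WT vehicle and 6415 to 9649 in WT DMXAA against 8571 to 10453 and 10013 to 11685 in KO. All 8 of those markers were detected in each group. Of 7 border-macrophage markers in the microglia class Pf4 was at 0 in every group and Lyve1 in all groups but KO DMXAA, and the summed level was 258 to 329 CPM in WT vehicle and 206 to 337 in WT DMXAA. The part of marker loss in the Mef2c value was not tested.

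Mef2a in microglia was at 2660, 2580, 2505 and 2149 normalised CPM in WT vehicle and at 1998, 2425, 1835 and 2318 in WT DMXAA. In KO it was at 1924, 1760, 2187 and 2068 with vehicle and at 2384, 2167, 2354 and 2462 with DMXAA. The groups overlapped in both genotypes, with lower means after DMXAA in WT and higher means in KO. The log2 fold change was −0.21 ± 0.11 in WT (adjusted p = 0.568), at −0.13 without WT DMXAA 3 and at 0.05 with UMIs of all nuclei as library size, and 0.24 ± 0.11 in KO (adjusted p = 0.781), and the interaction was −0.44 ± 0.15, with a p of 0.00847 and an adjusted p of 0.357 by edgeR.

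Border macrophages, a perivascular and meningeal relative of microglia, were few. Mef2c was at 3435, 3504, 2409 and 2753 normalised CPM in WT vehicle and at 2297, 1209, 971 and 2327 in WT DMXAA, which did not overlap. In the same class and direction 2.2% of 2004 genes had groups that did not overlap. WT DMXAA 3 held 140 such nuclei against 20 to 33 in the other libraries used, and without it the WT DMXAA values were 1209 to 2327. The log2 fold change was −0.84 ± 0.29 in WT, with a p of 0.010 and an adjusted p of 0.366, and 0.23 ± 0.31 in KO, where 1 DMXAA library had too few nuclei and was left out. The interaction was −1.08 ± 0.42, with an adjusted p of 0.544 by edgeR. The summed level of the class's own 7 markers was 9573 to 14112 CPM in WT vehicle and 2362 to 11990 in WT DMXAA, and that of the microglial markers in it was 2803 to 3484 and 1190 to 2951. Their part in the result was not tested.

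**Figure D3:**
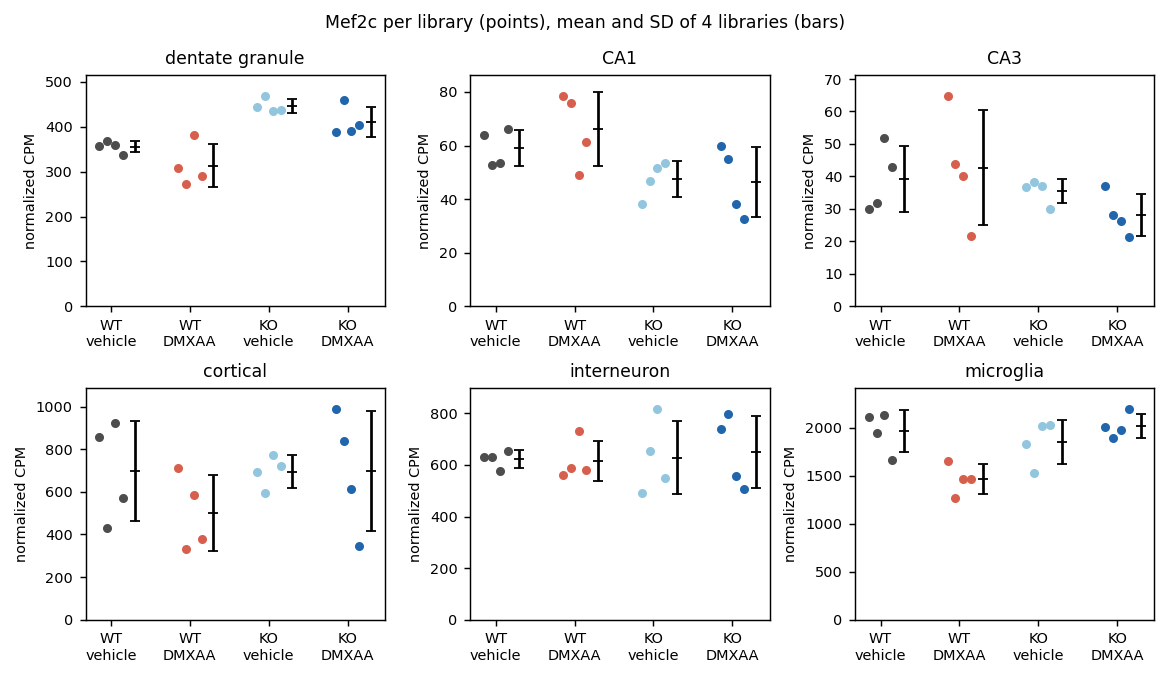
Mef2c in 6 classes as normalised CPM, 1 point a library, with the mean and SD of the 4 libraries of a group. In microglia the WT DMXAA libraries lie at 1272 to 1655, below the WT vehicle libraries at 1660 to 2138, and in every other class shown the WT groups overlap.

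In dentate granule neurons, the principal cells of the dentate gyrus, Mef2c was at 357.8, 367.9, 358.3 and 338.0 normalised CPM in WT vehicle and at 307.2, 273.1, 381.4 and 291.0 in WT DMXAA. In 3 of the DMXAA libraries it was below every vehicle library, and in WT DMXAA 3 it was above them all. The KO libraries had 444.6, 469.4, 434.4 and 437.7 with vehicle and 389.4, 458.7, 390.7 and 403.3 with DMXAA, which overlapped. The log2 fold change was −0.18 ± 0.10 in WT (adjusted p = 0.994) and −0.12 ± 0.10 in KO, with an interaction of −0.06 ± 0.14.

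This value depended on the scaling. In plain CPM, with no scaling for composition, the WT vehicle libraries had 406.9, 415.1, 421.8 and 386.8 CPM and the WT DMXAA libraries 355.6, 312.1, 341.7 and 327.9. On that scale the groups did not overlap, in a direction in which 3.26% of 14685 genes did not, and the log2 fold change was −0.29 (adjusted p = 0.0580 by edgeR). Without WT DMXAA 3 the normalised value was −0.29 too, with an adjusted p of 0.0604. Neither passed the threshold.

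The pyramidal regions gave small counts of Mef2c, with 30.02, 31.9, 51.8 and 43.0 normalised CPM in CA3 of WT vehicle libraries and 64.9, 43.8, 40.1 and 21.8 in WT DMXAA. In CA1 the libraries had 63.8, 52.9, 53.6 and 66.0 with vehicle and 78.6, 75.9, 49.1 and 61.4 with DMXAA. Both regions overlapped between groups, with log2 fold changes of 0.19 ± 0.25 in CA3 and 0.17 ± 0.18 in CA1 of WT and −0.35 ± 0.27 and −0.05 ± 0.19 in KO. The WT values moved with single libraries. The CA3 value was −0.07 without WT DMXAA 1, 0.08 without WT vehicle 1 or WT vehicle 2, 0.27 without WT DMXAA 3, 0.32 without WT vehicle 3 and 0.36 without WT DMXAA 4, and the CA1 value was 0.07 without WT DMXAA 1, 0.09 without WT DMXAA 2 and 0.29 without WT DMXAA 3. With UMIs of all nuclei as library size they were 1.14 in CA3 and 0.41 in CA1, and with a finer clustering the CA1 value was −0.16, none of them called. The KO values moved as well, in CA1 from −0.19 without KO DMXAA 1 to 0.09 without KO DMXAA 4, with −0.68 in a finer clustering and 0.04 in plain CPM, and in CA3 to −0.76 with no upper limit on genes and −0.55 with UMIs of all nuclei as library size, none called. In interneurons Mef2c was at 632, 631, 575 and 654 in WT vehicle and at 560, 588, 730.1 and 581 in WT DMXAA, with a log2 fold change of −0.02 ± 0.17, at −0.11 without WT DMXAA 3, and in KO it was 0.05 ± 0.17.

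In cortical excitatory nuclei Mef2c varied widely between mice of a group. It was at 859, 430, 925 and 572 normalised CPM in WT vehicle and at 710, 330, 585 and 378 in WT DMXAA, and in KO at 692, 594, 775 and 721 with vehicle and 990, 840, 614 and 344 with DMXAA. The log2 fold change was −0.48 ± 0.30 in WT (adjusted p = 1.0 by edgeR) and 0.00 ± 0.30 in KO. In WT it was −0.31 without WT vehicle 3, −0.32 without WT DMXAA 2, −0.69 without WT DMXAA 1 and −0.91 with UMIs of all nuclei as library size. In KO it ran from −0.21 without KO DMXAA 1 to 0.23 without KO DMXAA 4. The make-up of the cortical nuclei varied with it. Upper-layer nuclei made up 0.311% to 37.0% of cortical nuclei in WT vehicle libraries, 0.423% to 20.4% in WT DMXAA, 4.96% to 11.7% in KO vehicle and 0.370% to 31.8% in KO DMXAA. Upper-layer nuclei also had the most Mef2c. In WT vehicle libraries 1, 3 and 4 they had 1736, 1750 and 1247 CPM (library 2 held 2 such nuclei), against 951, 638, 876 and 640 CPM in the Tshz2 cortical nuclei and 277, 132, 370 and 204 CPM in deep-layer nuclei of libraries 1 to 4.

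Within each cortical group the difference was smaller and its WT groups overlapped, with −0.21 ± 0.17 in upper-layer, −0.31 ± 0.21 in Tshz2 and −0.21 ± 0.36 in deep-layer nuclei. Standardised to 1 mix of the 3 groups, the WT difference in cortical nuclei was −0.32 in plain log2 CPM (two-sided exact permutation p = 0.229, n = 4 a group, where 0.0286 is the smallest p possible). Upper-layer nuclei had a weight of 13.1% in that mix. Only 13 of the 16 libraries held at least 20 of them, and the lowest number was 1. Over all excitatory neurons Mef2c was lower by a fitted −0.55 ± 0.26 in WT (adjusted p = 1.0 by edgeR) and 0.00 ± 0.26 in KO. With 1 library left out the WT value ran from −0.73 to −0.41 and the KO value from −0.21 to 0.17. None of these was called, with a lowest adjusted p of 0.321 in WT by edgeR. The 6 regions were then held at their shares over the whole series (dentate granule 41.4%, cortical 32.0%, CA1 14.9%, CA3 4.91%, no region 4.15% and subiculum 2.67%). In plain log2 CPM the WT difference was then −0.29 (exact permutation p = 0.114) and the KO difference −0.02. The scale changed together with the mix, so the step from the fitted value is not that of the mix alone. No region's share passed a test between treatments. The lowest of 12 exact permutation p-values was 0.0857, for CA3 in WT, at 3.45% of excitatory-neuron nuclei with vehicle and 6.21% with DMXAA.

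**Figure D4:**
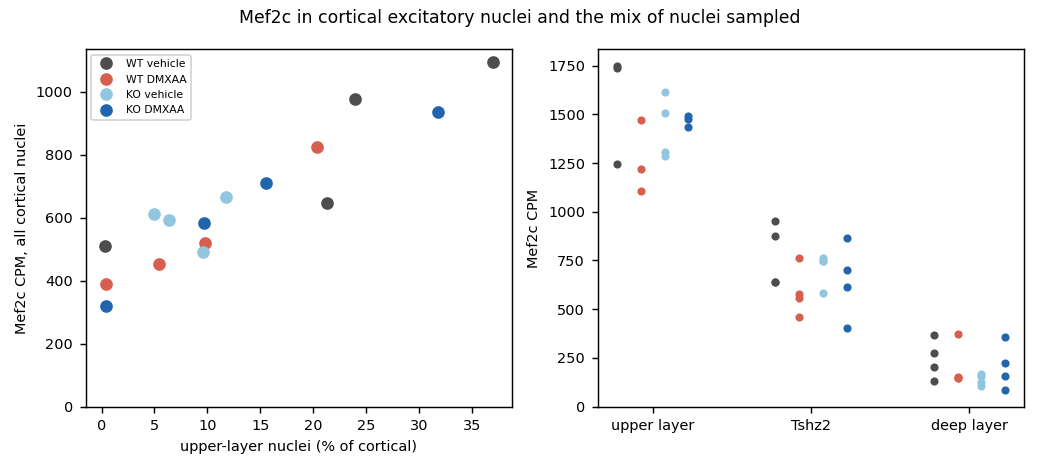
Left, Mef2c level in all cortical nuclei (CPM) against the share of those nuclei that were upper-layer (percent), 1 point for each of 16 libraries. Right, Mef2c level (CPM) in upper-layer, Tshz2 and deep-layer nuclei of each library, for example 1736 CPM in upper-layer, 951 in Tshz2 and 277 in deep-layer nuclei of WT vehicle 1.

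Mef2a in dentate granule neurons was at 149, 159, 140 and 160 normalised CPM in WT vehicle and at 138, 146, 177 and 164 in WT DMXAA, with a log2 fold change of 0.04 ± 0.08, at −0.03 without WT DMXAA 3 and −0.06 in plain CPM, and in KO it was 0.06 ± 0.08. Its groups overlapped. On the scale of plain CPM with regions held fixed, Mef2a over excitatory neurons differed by −0.04 in WT and by 0.19 in KO, the latter with an exact permutation p of 0.0286, the smallest possible, unadjusted. Over the 25 classes its fitted values ran from −0.39 to 0.22 in WT and from −0.35 to 0.39 in KO.

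Mef2d in dentate granule neurons was at 92.9, 94.4, 96.3 and 83.3 normalised CPM in WT vehicle and at 85.3, 80.5, 173 and 89.1 in WT DMXAA. Only WT DMXAA 3 was high, and the other DMXAA libraries lay among or near the vehicle libraries. KO libraries had 171, 192, 138 and 142 with vehicle and 141, 156, 140 and 138 with DMXAA. The log2 fold change was 0.22 ± 0.19 in WT and −0.16 ± 0.19 in KO, neither called, and without WT DMXAA 3 the WT value was −0.11. The same library turned the direction in CA1, CA3, cortical nuclei, excitatory neurons and interneurons, where the WT value without it was −0.21, −0.19, −0.01, −0.11 and −0.11.

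**Figure D5:**
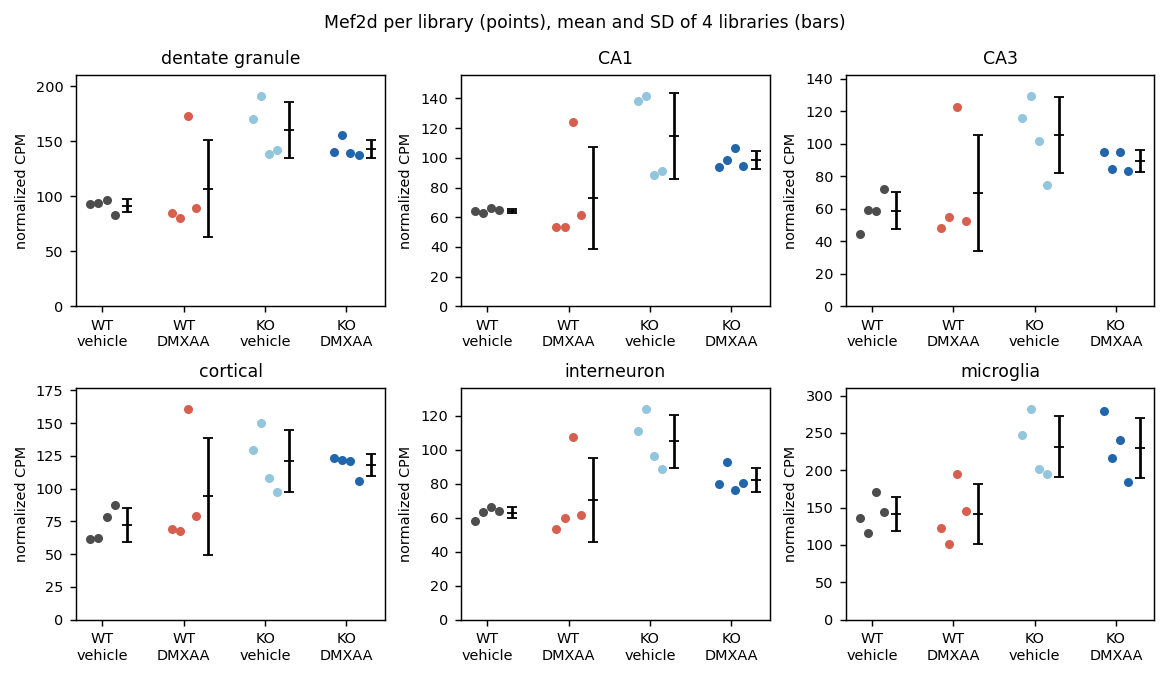
Mef2d in 6 classes as normalised CPM, 1 point a library, with the mean and SD of the 4 libraries of a group. WT DMXAA 3 is the single high point of its group in each neuronal class, for example 173 in dentate granule nuclei, and its value in cortical nuclei, 161, is above all KO libraries.

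Mef2b passed the filter on low counts in 9 classes. In dentate granule neurons it was at 6.45, 6.82, 5.61 and 6.35 normalised CPM in WT vehicle and at 3.75, 6.54, 6.70 and 6.59 in WT DMXAA, with 1 low library and otherwise overlapping values. Its log2 fold changes were below 0 in 9 of 9 classes in WT (−0.62 to −0.02) and in 8 of 9 in KO (−0.63 to 0.08). None had an unadjusted p under 0.05 (lowest 0.120 in WT and 0.0933 in KO), and these classes share nuclei. Without WT DMXAA 1, the low library, the WT value turned to 0.06 in dentate granule nuclei and 0.03 in excitatory neurons.

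The balance of paralogues was compared as the log2 ratio of 2 genes in the same nuclei, which does not depend on the scaling of libraries. In WT vehicle libraries the mean log2 ratio of Mef2c to Mef2a counts was 1.22 in dentate granule nuclei, 2.21 in cortical, 1.85 in interneurons, −0.33 in microglia, −1.13 in CA1 and −1.98 in CA3. These are ratios of counts and not per kb. Of 36 comparisons of DMXAA with vehicle (3 pairs, 6 classes and 2 genotypes) none passed (two-sided exact permutation test of 4 against 4 libraries, lowest p 0.0286, lowest adjusted p 0.343). At that lowest p, the smallest the design allows, were Mef2c to Mef2d in dentate granule nuclei of WT, lower by −0.34 after DMXAA, Mef2c to Mef2a in dentate granule nuclei of KO, at −0.18, and Mef2a to Mef2d in interneurons of KO, at 0.47, which was 0.27 (exact permutation p = 0.114) with no upper limit on genes and 0.36 (exact permutation p = 0.0571) without KO vehicle 2. The first of these holds the Mef2d value of WT DMXAA 3, whose log2 ratio of 1.14 was the lowest of the group beside 1.85, 1.76 and 1.71, all of them below the WT vehicle ratios of 1.89 to 2.02. Without that library the difference was −0.18.

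The members also differed between the vehicle groups of the genotypes, in a comparison that holds age and library set as well. Mef2d was higher in KO than in WT in 24 of 24 classes by its fitted value and was called in 14. In dentate granule nuclei the 4 KO vehicle libraries (138 to 192 normalised CPM) lay above the 4 WT vehicle libraries (83.3 to 96.3), and 25.5% of 14685 genes were separated in this way. The log2 difference was 0.81 ± 0.19 there (adjusted p = 0.00345), 0.74 in interneurons, 0.71 in microglia (adjusted p = 0.0253) and 0.68 over all nuclei. Over all genes and classes 16.2% of tests were called higher in KO and 17.3% lower, so a call in this contrast was common. WT DMXAA 3, the WT library near the KO libraries in Malat1 and long-gene share, had 173 normalised CPM of Mef2d in dentate granule nuclei. That value lay within the KO vehicle range, and the part of this library trait in the difference was not tested. Leaving out single libraries moved the calls. Without KO vehicle 2, Mef2d was no longer called in CA3 (0.71, adjusted p = 0.0695), cortical nuclei (0.62, adjusted p = 0.0605) and microglia (0.59, adjusted p = 0.0860), and the microglia call was also lost without KO vehicle 1 (0.68) or WT vehicle 1, 2 or 4 (0.69, 0.63 and 0.71), and the CA3 call without WT vehicle 1 (0.73).

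Gene length and scaling moved with genotype. In dentate granule nuclei the median log2 difference of KO from WT vehicle was 0.60 over 2321 genes longer than 100 kb and −0.41 over 8121 genes shorter than 30 kb, a group that holds Mef2d by its span of 29.7 kb. The median over all genes was −0.07 with scaling and −0.39 in plain CPM. On the unscaled values Mef2d was higher in KO by 0.42 in dentate granule nuclei (adjusted p = 0.0134), 0.38 in interneurons (adjusted p = 0.0228) and 0.54 in microglia (adjusted p = 0.0438), and its differences in CA1 (0.35), CA3 (0.43), cortical nuclei (0.29) and excitatory neurons (0.35) were not called. Mef2c was called in 5 of 24 classes, higher in dentate granule nuclei (0.33 ± 0.10, adjusted p = 0.0119) but at −0.06 without the scaling, and lower in astrocytes (−0.50), oligodendrocyte precursors (−0.67), subiculum (−0.72) and choroid plexus (−0.49). Mef2a was called in 1 of 25 classes, lower in microglia (−0.32, adjusted p = 0.0471, and −0.47 unscaled), and Mef2b in 1 of 9, higher over all nuclei (0.47, adjusted p = 0.0106). The Mef2a call was lost, at −0.33 to −0.27, without any 1 of WT vehicle 1, 2 or 3, KO vehicle 1, 2 or 4, or KO DMXAA 1, 3 or 4. The count of Mef2a calls depended on the scaling. In plain CPM Mef2a was called lower in KO in 7 of the 7 main classes, from −0.52 in CA3 to −0.38 in dentate granule nuclei, against 1 with scaling. Mef2c was called lower in 1 of them, CA1, at −0.76 (adjusted p = 0.00602). On that scale 45.2% of 94286 tests over all genes were called lower.

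The genes that act on MEF2 proteins, and genes that MEF2 proteins are known to drive, were described by counts beside all genes. Of 18 calcium, kinase and phosphatase regulators, none was called in excitatory neurons of WT, where 0.118% of 17771 genes were called, and their median log2 fold change was 0.09 against 0.01 over all genes. Without WT DMXAA 3 the 2 medians were −0.08 and 0.00, again with none called. The 2 with the smallest p there were Sik3, a salt-inducible kinase that phosphorylates class IIa deacetylases, at 0.43, and Camk2g, a CaM kinase subunit, at −0.21. In microglia, where 1.76% of 9070 genes were called in WT, 1 of 16 tested was called, Camk1d, a CaM kinase, which rose by 0.76 ± 0.13 (adjusted p = 0.00359) and by 0.61 ± 0.10 without WT DMXAA 3 (adjusted p = 0.000386). Fitted in WT libraries alone it was at 0.79, with an adjusted p of 0.0730. Sik2, a salt-inducible kinase (−0.54), and Camk2a (−0.91) were called lower there without WT DMXAA 3, in a fit where 3.05% of 9281 genes were called lower. Camk2a is an excitatory-neuron gene, at 0.06 with all libraries, and the summed excitatory-neuron markers in the class were at 170 to 210 CPM in the remaining WT DMXAA libraries against 235 to 357 in WT vehicle. None of the 8 class IIa deacetylases and corepressors and none of the 6 coactivators was called for DMXAA in either genotype in any of the 12 classes examined with all libraries (1 and 0 at an unadjusted p under 0.05 in excitatory neurons of WT, by edgeR). Over all genes and classes 0.19% of tests were called in WT and 0.00038% in KO, so 0 calls do not set these genes apart. An unadjusted p under 0.05 by edgeR was found for 771 of 17771 genes in excitatory neurons of WT. In excitatory neurons of WT, Hdac3, a class I deacetylase of the corepressor complex, was at −0.20, and the coactivators with the smallest p were Kat2b, at 0.20, and Ncoa2, at 0.15.

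Of 10 activity-dependent MEF2 targets none was called for DMXAA in either genotype by edgeR with all libraries (1 at an unadjusted p under 0.05 in excitatory neurons of WT). Over all genes 0.118% were called in excitatory neurons of WT and 0 in KO, so 0 calls do not set the targets apart. There 771 of 17771 genes had an unadjusted p under 0.05 in WT by edgeR. The median log2 fold change of the targets in excitatory neurons of WT was −0.30 against 0.01 over all genes, with Klf2, a zinc-finger factor, at 0.72 and Pcdh10, a protocadherin, at −0.39, the 2 with the smallest p. The median was −0.34 without WT DMXAA 3. In CA3 of WT the median was −0.42, against 0.00 over all genes, with 5 of 9 at an unadjusted p under 0.05, beside 8.76% of all genes. Without WT DMXAA 3 it was −0.49, and 2 of 9 were called there, Jun, an immediate-early factor, at 1.52, where 2.26% of 11441 genes were called higher, and Lgi1, a secreted synaptic protein, at −0.71, where 2.98% were called lower. In KO that fit gave a median of −0.29 in CA3, against −0.003 over all genes. There 4 of 9 had an unadjusted p under 0.05 by edgeR, beside 10.6% of all genes. That fit also called Bdnf, a neurotrophin, lower in CA3 of KO (−1.20, where 0.00874% of genes were called lower). Jun was called higher in dentate granule nuclei of KO (0.69, where 1.04% of 14926 genes were called higher). Klf2 in dentate granule nuclei of WT went from 1.08 (adjusted p = 0.920 by edgeR) to 1.36 ± 0.28 (adjusted p = 0.0215) without that library, where 0.469% of genes were called higher. Those counts without a library, here and below, were alternatives added after the data were seen.

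A list of 228 MEF2C targets was also measured. The study made it by overlapping a target list from earlier work with the genes that differed in excitatory neurons between P301S tau-transgenic mice with and without Cgas, which are other mice than those here. The paper reports some targets raised and others lowered by Cgas deletion, and the list was not split by direction. Its medians therefore do not show whether the targets moved with or against that change. In excitatory neurons of WT 0 of 226 tested were called by edgeR (15 at an unadjusted p under 0.05, or 6.64%, beside 4.34% of all genes), with a median of 0.10 against 0.01 over all genes, and in KO the median was −0.14. The list's genes are long, with a median span of 192 kb, and all genes longer than 100 kb had the same medians in excitatory neurons, 0.10 in WT and −0.14 in KO. In dentate granule nuclei the list stood at 0.16 and −0.14, beside 0.13 and −0.10 for long genes. The WT medians depended on WT DMXAA 3 and on the scaling. Without that library the list was at −0.14 in excitatory neurons and −0.09 in dentate granule nuclei, and long genes were at −0.10 and −0.07, so that the direction turned for both, with no target called in WT by edgeR (34 in each class at an unadjusted p under 0.05, or 15.04% and 15.1%, beside 15.4% and 15.3% of all genes). Plain CPM also moved the WT medians, to −0.02 in excitatory neurons and 0.04 in dentate granule nuclei. They were 0.17 and 0.25 without WT DMXAA 1, and 0.03 and 0.16 with UMIs of all nuclei as library size.

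In microglia the targets stood at 0.45 in WT and −0.49 in KO over 201 genes tested, beside 0.19 and −0.20 for long genes. In WT 4 of the 201 were called, or 1.99% beside the 1.76% of all genes, and they are named here after their values were seen. Rassf3 (0.90, adjusted p = 0.0138) and Ipcef1 (0.69) were higher, and Numb, a regulator of Notch (−0.68), and Elmo1, an adaptor of engulfment (−0.71), were lower. Without WT DMXAA 3 the WT median turned to −0.54, with long genes at −0.22. Then 30 of 200 were called lower, where 3.05% of 9281 genes were, and 2 higher, where 3.04% were, and all 4 named targets were among them. Several of those lower were neuronal adhesion genes whose values turned with that library, such as Nlgn1 (1.23 with it, −1.38 without) and Nrxn3 (1.30 and −1.17). The summed level of 8 excitatory-neuron markers in the microglia class moved with them, at 509.7 CPM in WT DMXAA 3, 170 to 210 in the other WT DMXAA libraries, 235 to 357 in WT vehicle, 256 to 408 in KO vehicle and 256 to 323 in KO DMXAA, with all 8 detected in each group. Its part in the counts was not tested. In KO microglia the same fit called 19 of 200 lower and 0 higher, where 1.01% of genes were called lower. With all libraries 0 targets were called in KO microglia. The 4 calls in WT became 1 without WT vehicle 1 or WT vehicle 2, 2 without WT vehicle 3 and 0 by edgeR without WT DMXAA 2 or in WT libraries alone. With doublets kept 1 was called and the median was 0.18, and with UMIs of all nuclei as library size 3 were higher and 0 lower, with a median of 0.71.

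With all libraries, CA3 held most of the called targets. There 14 of 215 rose in WT, among them Cntn6 (2.28), Grik1 (2.19), Kirrel3 (2.18), Cntn4 (2.11) and Ntng1 (1.94), which are adhesion molecules and a kainate receptor subunit, where 0.677% of 11081 genes were called higher. Markers of neighbouring regions moved in the same class. The summed level of 7 subiculum markers, of which Cntn6 is 1, was 7.38 to 15.8 CPM in CA3 of WT vehicle libraries and 42.6 to 108 in WT DMXAA, and that of the CA1 markers 252 to 424 and 561 to 652, while the CA3 markers were at 3835 to 4191 and 2780 to 4636. In KO, over both treatments, the subiculum markers ran from 15.1 to 67.1 CPM and the CA1 markers from 379 to 812. CA3 had 68 to 208 nuclei a library in WT vehicle and 86 to 371 in WT DMXAA. The part of those nuclei in the 14 calls was not tested.

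Single libraries moved the CA3 count. It fell from 14 to 1 without WT vehicle 1 or WT vehicle 3, to 2 without WT vehicle 4 to 7 without WT vehicle 2, WT DMXAA 4 or KO vehicle 3 and to 9 without KO DMXAA 2 or KO DMXAA 3. Without WT DMXAA 3 it was 19 higher, all 14 among them, and a further 42 of 218 were called lower, beside the shares of 2.26% and 2.98% over all genes. The median of the list went from 0.08 to −0.20, with all long genes at −0.15. In that fit 4 regulators were also lower in CA3, namely Camk1d (−0.63), Map2k5, a kinase upstream of ERK5 (−0.52), Ppp3ca, the calcineurin catalytic subunit (−0.49), and Camk2a, a CaM kinase subunit (−0.49). Hdac5, a class IIa deacetylase, was lower too (−0.66) and Kat2b higher (1.68).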

How the data were processed

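Single-nucleus RNA-seq libraries were made from the hippocampi of 16 mice. The authors deposited, for each library, a matrix of raw UMI counts per gene and nucleus, made with Cell Ranger and counted on pre-mRNA against mm10. The file headers name version 6.1.2 and the submitters' processing notes 3.1.0, with Seurat 3.0 named for their own analysis. Whether strand was used in counting is not given in the sources used here.

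From the deposited counts, nuclei with 200 to 4000 genes and at most 5% mitochondrial UMIs were kept (10.5% to 24.0% of barcodes a library were above the upper limit), and 11508 nuclei most like simulated doublets were removed, at a rate of 0.8% per 1000 barcodes. Counts were reduced to 2000 variable genes and 30 principal components and clustered by Leiden at a resolution of 0.5 (leidenalg 0.10.2, igraph 0.11.9, Python 3.11.15). The MEF2 genes, Ifnar1 and the gene lists were left out of the clustering. Clusters were named from marker lists, with naming thresholds set after the clusters were seen. Raw counts were summed per library and class (at least 20 nuclei) and tested in 1 fit of 4 groups by the quasi-likelihood F test of edgeR 4.0.16 (R 4.3.3), after filterByExpr and TMM scaling, with Benjamini-Hochberg adjustment over all genes of a class and contrast. Normalised CPM is scaled by TMM, and plain CPM by the UMIs of the class. Log2 CPM and ratios had 0.5 added. For single values, libraries were permuted exactly and two-sided p-values taken. The fitting was tested on simulated data.

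Named genes were the 4 members, Ifnar1, called genes of the fixed lists (up to 5 a list and contrast by fold change, otherwise the 2 with the smallest p in excitatory neurons of WT) and the 5 genes most like each member. One gene that this rule named is not reported here. The members and lists were chosen with earlier results of these data known. The MEF2C targets came from a supplementary list of the study on other mice. The replicate numbers were given in accession order and pair nothing. Alternatives were DESeq2 1.42.0, other scalings and filters, another resolution, doublets kept, no upper limit on genes, 1 genotype alone and each library left out. Counting error limits Mef2b most.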

Additional observations from a re-analysis of the deposited data

Results flagged for a closer look

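A total of 10 group values of a member held 1 library far from the other 3, with a gap to its nearest neighbour of more than 0.829 of the group's range, Dixon's 95% critical value for 4 samples. In all 104 groups of 4 were examined, and chance flags about 5% of them. Of the 10, 6 were Mef2d in WT DMXAA 3, at 173 normalised CPM in dentate granule nuclei, 124 in CA1, 123 in CA3, 161 in cortical nuclei, 157 in excitatory neurons and 107 in interneurons, where the other 3 libraries of the group lay at 80.5 to 89.1, 53.1 to 61.4, 48.3 to 54.8, 67.7 to 79.0, 67.9 to 76.8 and 53.3 to 61.4. Excitatory neurons hold dentate granule, CA1, CA3 and cortical nuclei, so these are not separate findings. Mef2c in interneurons was also high in WT DMXAA 3, at 730.1 against 560 to 588. The remaining values were Mef2b in dentate granule nuclei of WT DMXAA 1, at 3.75 against 6.54 to 6.70, Mef2d in cortical nuclei of KO DMXAA 4, at 106 against 121 to 123, and Mef2d in dentate granule nuclei of KO DMXAA 2, at 156 against 138 to 141.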

How the results depend on the processing

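No paired analysis was possible because replicate numbers were given in accession order and the labels tie no mouse of one group to a mouse of another. With DESeq2, 1 of 26 tests of DMXAA in WT was called (Mef2c in microglia) where edgeR called 0, and leaving out 1 library gave 0 to 1 (1 without WT vehicle 4 or WT DMXAA 3). For KO against WT vehicle the calls went from 9 to 3 when UMIs of all nuclei set the library size, and leaving out 1 library gave 5 to 11. Of neighbouring classes 9 of 44 pairs passed in DMXAA libraries and 0 of 56 in vehicle, where the 8 pairs at the smallest p did not pass, so the counts do not compare the treatments. Plain CPM, an alternative chosen after seeing the data, turned the direction of KO against WT for Mef2a in dentate granule nuclei (−0.38), cortical nuclei (−0.40) and excitatory neurons (−0.44) and for Mef2c in dentate granule nuclei (−0.055) and interneurons (−0.34) and for Mef2b in cortical nuclei (−0.33) and excitatory neurons (−0.016), each positive when scaled. Mef2d in cortical nuclei, 0.74 when scaled, was 0.12 with UMIs of all nuclei as library size, 0.29 in plain CPM, and 0.24 (exact permutation p = 0.257) in plain CPM with the mix of 3 cortical groups also held fixed, another alternative chosen after seeing the data. In excitatory neurons Mef2d, 0.82 when scaled, was 0.35 in plain CPM. It was also 0.35 in plain CPM with regions held fixed (exact permutation p = 0.0571). The CA3 count of MEF2C targets called higher in WT, 14, was 2 with no upper limit on genes, 7 with doublets kept, 28 with UMIs of all nuclei as library size and 30 with no filter on low counts, all run after seeing the data. Neither the DMXAA counts in KO, the interaction counts, the paralogue ratios nor the region shares changed from 0 under the alternatives run for them. The exact test of the ratios and shares passes adjustment only if many comparisons reach the smallest p together, so those counts could hardly change. No reading here separates genotype from age or library set. WT DMXAA 3 decided the direction of Mef2d in WT neurons, and with 4 mice a group an exact test cannot go below 0.0286.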
